A study of Rattus norvegicus with 120 samples.

Results

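The ATP-binding cassette (ABC) drug efflux pumps described here are 7 rat genes, Abcb1a, Abcb1b, Abcc1, Abcc2, Abcc3, Abcc4 and Abcg2. Each gene was represented by the probe set that the array annotation assigned to it alone, and where there were several, by the probe set with the highest mean over all arrays. By this rule 6 of the 7 genes were measured, out of 14217 genes with a probe set of their own. Abcb1b had none, because its only probe set is shared with Abcb1a. All 6 measured pumps were among the 10663 genes kept after the 25% of genes with the lowest mean were left out.

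ABC pumps use ATP to move drugs, conjugates and other organic molecules out of cells. In the kidney they stand mostly in the proximal tubule, where the pumps of the brush border (apical side) finish the secretion of a compound into the urine and those of the basolateral side return it to the blood. Abcb1a and Abcb1b encode rodent P-glycoprotein, an apical pump of hydrophobic drugs that carries cyclosporine, tacrolimus and rapamycin. Abcc2 (Mrp2) and Abcc4 (Mrp4) are apical pumps of the multidrug resistance protein family: Mrp2 exports glutathione and glucuronide conjugates, and Mrp4 exports cyclic nucleotides, urate and antiviral drugs. Abcg2 (Bcrp) is an apical exporter of urate and sulfate conjugates, while Abcc1 (Mrp1) and Abcc3 (Mrp3) are basolateral exporters of organic anion conjugates.

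The pumps were followed in kidneys of 120 male Sprague-Dawley rats, about 5 to 7 weeks old and given daily intraperitoneal doses, with 1 array per rat. The 28 groups were combinations of 7 treatments with 1, 7, 14 or 28 consecutive daily doses, and kidneys were collected 24 hours after dosing ended. The treatments were cyclosporine (CsA) at 25 or 2.5 mg/kg/day, tacrolimus (FK506) at 6 or 0.6 mg/kg/day, rapamycin (Rapa) at 10 or 1 mg/kg/day, and olive oil as vehicle. CsA and FK506 inhibit calcineurin and are known for toxicity to the kidney, and Rapa inhibits mTOR. Groups held 4 rats, with 3 for FK506 6 mg/kg at day 14 and, at day 28, 5 for CsA 2.5 mg/kg, FK506 6 mg/kg and vehicle and 6 for FK506 0.6 mg/kg, Rapa 10 mg/kg and Rapa 1 mg/kg. Here "day" means the number of daily doses. The title of the study names early markers of kidney toxicity of calcineurin inhibitors as its aim.

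Levels are log2 of the deposited intensity plus 16, after quantile normalization. A difference of 1 is a factor of 2 on the offset scale, which understates changes of weak signals. Deposited intensities of Abcb1a ran from 26.97 to 282.4 with a median of 119.7, those of Abcc2 from 47.0 to 419.5 and those of Abcg2 from 1050 to 2790. The kidney label fitted its defining transcripts, since the proximal tubule genes Slc34a1 and Lrp2 had a lowest level of 13.39 and 12.85 over all arrays and the loop of Henle gene Umod one of 13.32. Whole kidney pieces were measured, so fewer cells of a type and less RNA per cell cannot be told apart. Some features of the arrays touch results below. All 5273 zeros of the table lay in 1 array, replicate 3 of CsA 25 mg/kg at day 28. The bacterial spike-in controls added at hybridization (18 probe sets) averaged under 10 on 8 arrays, of which 4 were among the 5 of FK506 6 mg/kg at day 28, 3 among the 6 of Rapa 1 mg/kg at day 28 and 1 among the 6 of FK506 0.6 mg/kg at day 28. The level of the liver transcript Alb was above 12 on 4 arrays, namely replicates 3 and 4 of CsA 25 mg/kg at day 1, replicate 4 of CsA 2.5 mg/kg at day 14 and replicate 2 of CsA 2.5 mg/kg at day 28.

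The promoter windows of 3 of the apical pumps with calls below are shown first, without that of Abcc4. They are the stretches from 250 bases before to 50 bases after an annotated RefSeq start site (build GRCr8). Capitals mark letters that matched a searched motif on either strand. The motifs were the inverted CCAAT box ATTGG, the GC box GGGCGG, the cyclic AMP response element TGACGTCA, the antioxidant response element core TGACNNNGC, the E-box CACGTG and the xenobiotic response element core GCGTG, and no matches overlapped within these 3 windows. The Abcc2 window lies at chr1:252613625-252613924 on the plus strand. The Abcb1a window lies at chr4:26397599-26397898 on the minus strand, inside the annotated span of the gene (26312403 to 26488456). The Abcg2 window lies at chr4:89075224-89075523 on the plus strand, also inside the span of its gene (89006056 to 89132915).
Abcc2: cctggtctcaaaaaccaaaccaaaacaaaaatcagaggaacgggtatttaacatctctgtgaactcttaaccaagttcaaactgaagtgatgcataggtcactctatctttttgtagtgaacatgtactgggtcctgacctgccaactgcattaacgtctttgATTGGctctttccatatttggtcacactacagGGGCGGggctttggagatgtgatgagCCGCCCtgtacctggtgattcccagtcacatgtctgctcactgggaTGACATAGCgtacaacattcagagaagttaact
Abcb1a: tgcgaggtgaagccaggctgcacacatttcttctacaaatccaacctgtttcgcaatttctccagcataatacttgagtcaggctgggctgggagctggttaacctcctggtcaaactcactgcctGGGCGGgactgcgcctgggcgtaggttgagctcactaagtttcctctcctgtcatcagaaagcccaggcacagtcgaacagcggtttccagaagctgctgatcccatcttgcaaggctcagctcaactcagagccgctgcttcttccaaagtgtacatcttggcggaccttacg
Abcg2: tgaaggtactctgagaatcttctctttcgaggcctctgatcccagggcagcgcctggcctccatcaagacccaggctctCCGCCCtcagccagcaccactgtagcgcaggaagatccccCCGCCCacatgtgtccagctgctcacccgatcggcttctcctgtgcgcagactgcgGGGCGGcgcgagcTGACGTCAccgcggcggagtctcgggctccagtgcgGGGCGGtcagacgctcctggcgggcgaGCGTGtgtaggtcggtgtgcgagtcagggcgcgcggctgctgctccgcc
The Abcc2 window held an inverted CCAAT box, GC boxes on both strands and, at base 18 after the start site, an antioxidant response element core. The Abcb1a window held a single GC box, and the Abcg2 window held 4 GC boxes, a full cyclic AMP response element and a xenobiotic response element core. Of 33465 rat promoter windows, 33.1% held a GC box, 37.5% an inverted CCAAT box, 12.1% the antioxidant core, 1.83% the cyclic AMP element, 29.7% the xenobiotic core and 6.42% the E-box. A GC box was found in all 6 pump windows in the RefSeq table (Abcb1a, Abcb1b, Abcc1, Abcc2, Abcc4 and Abcg2). These matches describe letters and not bound sites.

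Against vehicle of the same day, pump calls lay mainly at day 28, in both directions. Abcb1a was lower with FK506 6 mg/kg and with both Rapa doses, Abcc2 was higher with CsA 25 mg/kg and FK506 6 mg/kg, and Abcc4 was slightly higher with CsA 25 mg/kg and FK506 0.6 mg/kg. Abcg2 was higher with both Rapa doses at day 14. Of the 144 tests (6 pumps in 24 comparisons), 9 passed an adjusted p of 0.05 in limma's moderated test with Benjamini-Hochberg adjustment over all 10663 genes, 6 of them higher and 3 lower. This is 6.25% of the pump tests, near the 5.22% of all genes over the same comparisons, and 23 pump tests had an unadjusted p under 0.05. The highest share of all genes called in a comparison also fell at day 28, at 21.1%. It was 10.5% at day 14, 7.3% at day 7 and 3.08% at day 1. Neither dose of any drug had a pump call at day 1 or day 7, and CsA 2.5 mg/kg had none at any day. Treated groups of a day share their vehicle rats, so their changes are not independent of each other.

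**Figure D1:**
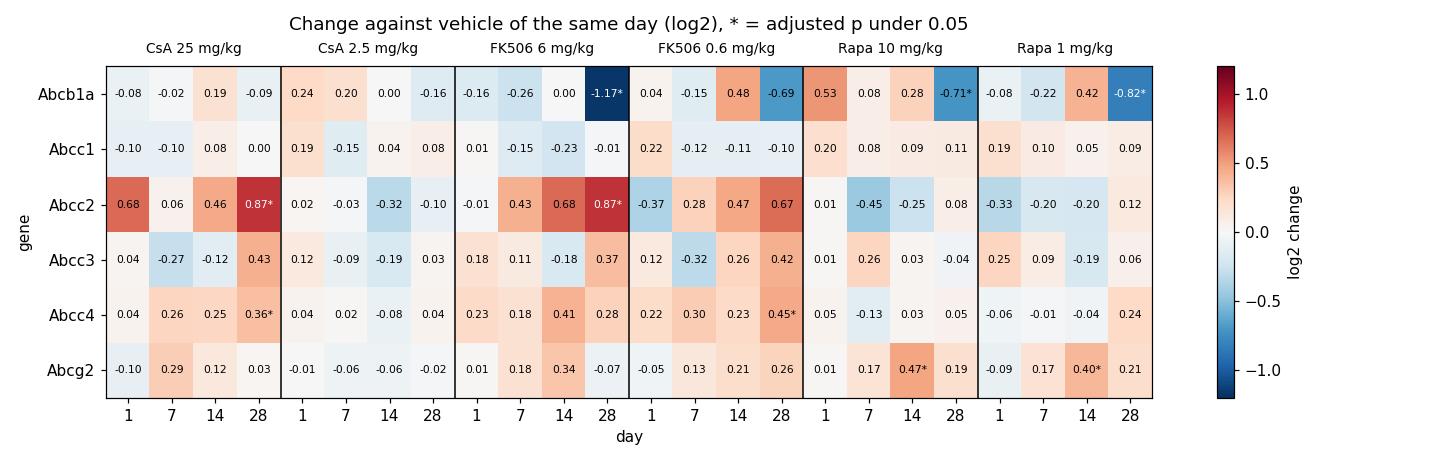
Log2 change of each measured pump (rows) against vehicle of the same day, by drug, dose and day (columns), with asterisks at adjusted p under 0.05. The marked cells are 3 of Abcb1a and 2 each of Abcc2, Abcc4 and Abcg2, and the deepest is -1.17 for Abcb1a with FK506 6 mg/kg at day 28.

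Group means of a pump spanned at most 1.27 log2 units over the 28 groups. Abcc2 had the widest range, from 7.99 ± 0.18 with FK506 6 mg/kg at day 14 (SD, n = 3) to 6.72 ± 0.49 with FK506 0.6 mg/kg at day 1 (n = 4). Abcb1a ran from 7.48 ± 0.23 with vehicle at day 28 (n = 5) to 6.31 ± 0.64 with FK506 6 mg/kg at day 28 (n = 5), so its highest and lowest groups were rats of the same day. The other 4 pumps spanned 0.65 (Abcc3), 0.56 (Abcc4), 0.56 (Abcg2) and 0.33 (Abcc1), with median within-group SDs of 0.22, 0.18, 0.15 and 0.14. In none of the 6 orders did any of the 27 pairs of neighbouring groups lie apart by more than the larger of their SDs. With 28 means sorted within ranges this narrow such a gap is unlikely, so the absence of steps cannot be read from it. Vehicle rats at days 7, 14 and 28 against day 1 gave 0 calls in 18 pump tests by limma, with 1 at an unadjusted p under 0.05 and 2.11% of all genes called. That 1 was Abcb1a, at 7.48 ± 0.23 at day 28 (n = 5) and 6.87 ± 0.26 at day 1 (n = 4), a difference of 0.61 (SE 0.28, adjusted p = 0.291).

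**Figure D2:**
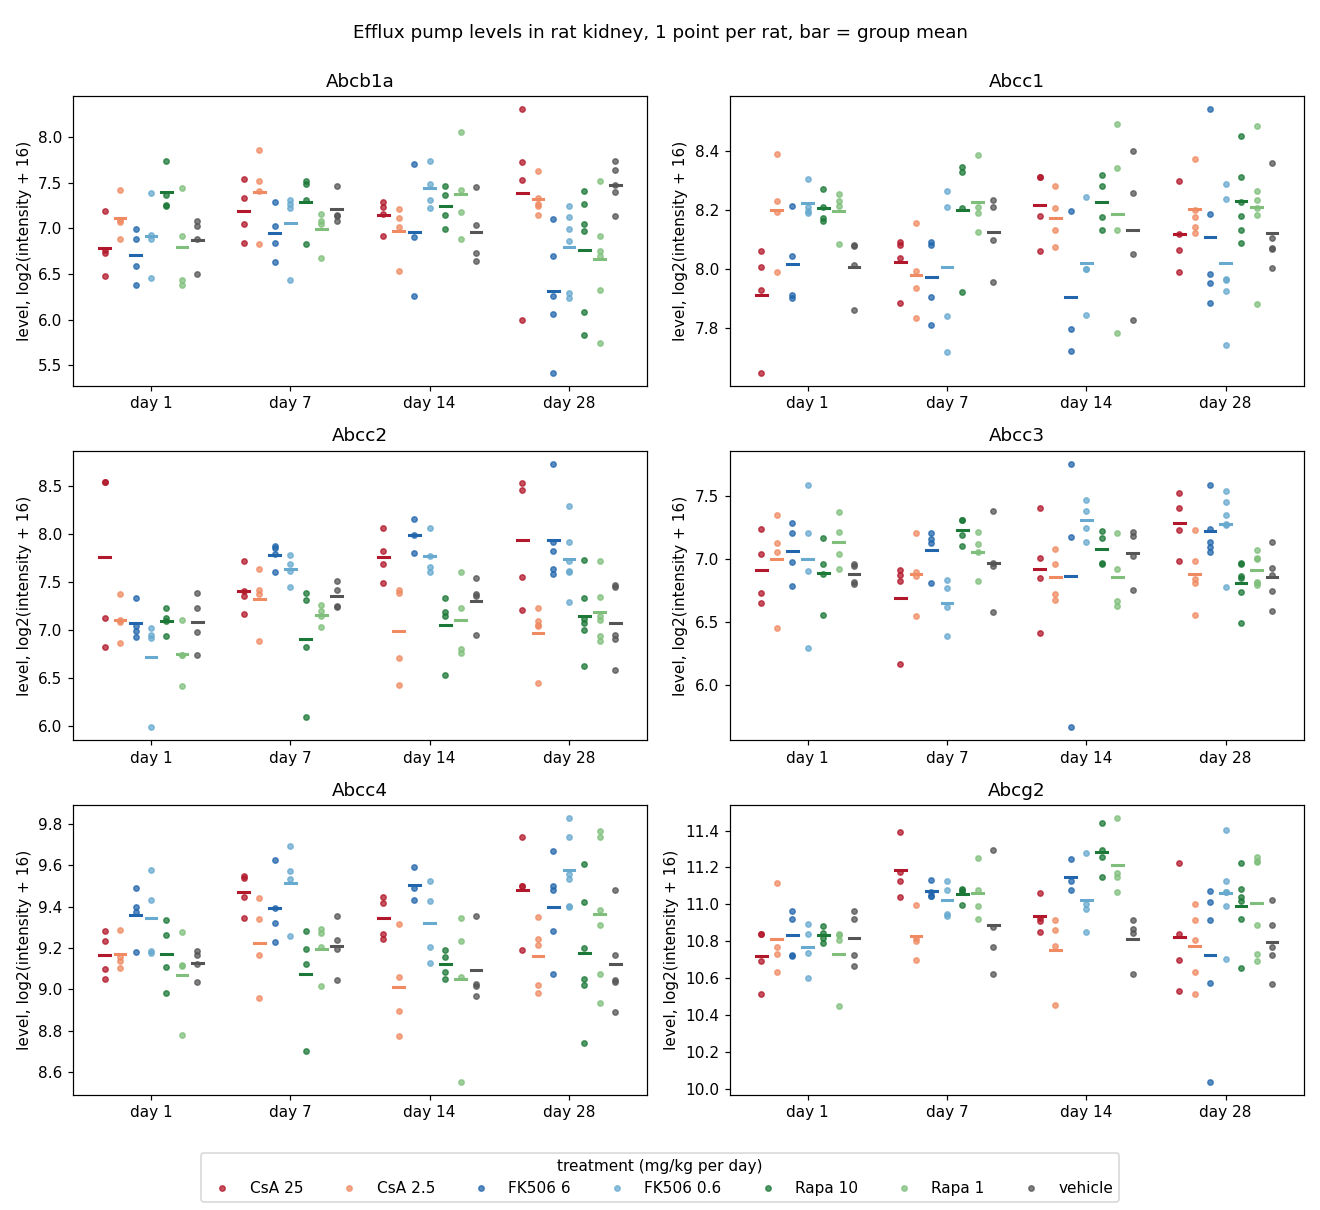
Level of each measured pump, log2(intensity + 16), in every rat (points) and the group mean (bars), by day (x axis) and treatment (colour, in mg/kg per day). Abcb1a at day 28 shows vehicle at 7.14 to 7.74 with FK506 6 mg/kg at 5.42 to 7.11 below it, and Abcc2 shows CsA 25 mg/kg and both FK506 doses above the Rapa means at days 14 and 28, with CsA 2.5 mg/kg below them.

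Abcb1a, the P-glycoprotein gene with a probe set of its own, was 0.444 times its vehicle level after 28 doses of FK506 6 mg/kg. The 5 FK506 6 mg/kg rats had levels of 6.06, 6.70, 6.26, 7.11 and 5.42, against 7.40, 7.74, 7.64, 7.48 and 7.14 in the 5 vehicle rats. All treated rats lay below all vehicle rats, although the highest and the lowest nearly touched. The change was -1.17 (SE 0.27, 95% interval -1.70 to -0.64, adjusted p = 0.000829), in a comparison where 16% of all genes and 2 of 6 pumps were called. The hybridization controls moved with this group, at 9.15 ± 1.04 (SD, n = 5) and with a range of 7.52 to 10.43 in FK506 6 mg/kg rats, against 10.67 ± 0.06 (n = 5) in vehicle rats. With the control level as a covariate the change was -0.84 (adjusted p = 0.0924), and without the 8 arrays with low controls, which leaves 1 FK506 6 mg/kg rat whose spread is taken from the other groups, it was -0.78 (adjusted p = 0.575).

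The Rapa groups were lower too. Abcb1a levels with Rapa 10 mg/kg at day 28 were 5.83 at the lowest and 7.41 at the highest, with a mean of 6.77 ± 0.65 (SD, n = 6), against the vehicle mean of 7.48 ± 0.23 (n = 5). Levels with Rapa 1 mg/kg were 5.75 to 7.52, with a mean of 6.66 ± 0.59 (n = 6). Both groups overlapped vehicle, since 1 Rapa 1 mg/kg rat and 2 Rapa 10 mg/kg rats reached the vehicle range. The changes were -0.71 (SE 0.26, adjusted p = 0.0436) for Rapa 10 mg/kg, where 15.7% of all genes were called, and -0.82 (SE 0.26, adjusted p = 0.0258) for Rapa 1 mg/kg, where 9.85% were called. Abcb1a was the only pump called in these comparisons. The Rapa 1 mg/kg change was -0.60 (adjusted p = 0.22) with the hybridization controls as a covariate and -0.43 (adjusted p = 0.482) without the low-control arrays, whereas the Rapa 10 mg/kg arrays had controls at 10.73 ± 0.15 (n = 6). The Rapa 10 mg/kg call was lost in 4 of 11 other settings, namely without quantile normalization (-0.67, adjusted p = 0.0577), without the filter on dim genes (-0.71, 0.058), with probe sets kept apart (-0.71, 0.0651) and with day 28 arrays alone (-0.72, 0.164). Leaving out vehicle replicate 1, 2, 3 or 4 took the Rapa 10 mg/kg change to between -0.73 and -0.65 (adjusted p up to 0.111), and leaving out vehicle replicate 2 or 3 took that of Rapa 1 mg/kg to -0.76 and -0.78 (adjusted p = 0.0793 and 0.0578).

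With FK506 0.6 mg/kg at day 28 Abcb1a had a mean of 6.79 ± 0.43 (SD, n = 6), a change of -0.69 that was not called (SE 0.26, adjusted p = 0.11). The CsA group means lay near vehicle, with 7.39 ± 0.99 for 25 mg/kg (n = 4, change -0.09, 95% interval -0.65 to 0.48) and 7.32 ± 0.18 for 2.5 mg/kg (n = 5, change -0.16, 95% interval -0.69 to 0.38). The 4 CsA 25 mg/kg rats were far apart, at 7.53, 7.73, 8.31 and 6.00, and the highest of them is the array with zeros. Without replicate 4, the lowest, the change from vehicle was 0.38 (SE 0.29, adjusted p = 0.416), and CsA 25 mg/kg was above Rapa 10 mg/kg by 1.09 (SE 0.28, adjusted p = 0.0021), against 0.63 and no call with all rats (adjusted p = 0.0964). Set directly against each other, CsA 25 mg/kg was above FK506 6 mg/kg by 1.08 (SE 0.28, 95% interval 0.52 to 1.65, adjusted p = 0.00998), where 5.7% of all genes and 1 of 6 pumps were called. Without the array with zeros this difference was 0.78 (adjusted p = 0.175), without FK506 6 mg/kg replicate 5 it was 0.86 (adjusted p = 0.0778), and with the hybridization controls as a covariate it was 0.69 (adjusted p = 0.448). FK506 6 mg/kg and Rapa 10 mg/kg differed by -0.46 (95% interval -0.97 to 0.05, adjusted p = 0.27), and neither FK506 nor Rapa showed a called difference between its doses (-0.48, 95% interval -0.99 to 0.03, and 0.11, 95% interval -0.38 to 0.59).

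On its main probe set, the Abcb1a difference of Rapa 10 mg/kg from vehicle was called as unlike between day 28 and day 1. At day 1 the 4 Rapa 10 mg/kg rats were at 7.37, 7.25, 7.26 and 7.74, against 6.50, 6.88, 7.03 and 7.08 in vehicle rats. The groups did not overlap, but the change of 0.53 was not called (adjusted p = 0.417). The change at day 28 minus that at day 1 was -1.24 (SE 0.39, adjusted p = 0.0422), the only call among 36 such tests (6 pumps, 6 treatments). Of all genes 2.86% were called over the 6 treatments and 5.54% for Rapa 10 mg/kg. The vehicle rats contribute to this value, since vehicle was 0.61 higher at day 28 than at day 1. On a second Abcb1a probe set the change from vehicle was 0.74 at day 1 and -0.26 at day 28. On the probe set shared with Abcb1b it was 0.18 and -0.23, and none of these was called. The test between days was not run on these probe sets, in other settings or without single rats. Gapdh signal at the 3′ end over that at the 5′ end, a measure of RNA and labelling quality, had a log2 value of 0.73 ± 0.15 with Rapa 10 mg/kg at day 1 (SD, n = 4) and 0.32 ± 0.07 with vehicle (n = 4), and its part in the difference was not tested.

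At day 28 the other probe sets for P-glycoprotein gave smaller differences from vehicle with FK506 6 mg/kg and both Rapa doses. In a fit with 23282 probe sets kept apart, the second Abcb1a probe set was at 5.98 ± 0.23 with FK506 6 mg/kg at day 28 and 6.70 ± 0.37 with vehicle (SD, n = 5 each), a change of -0.72 that was not called (SE 0.31, adjusted p = 0.152). The probe set shared by Abcb1a and Abcb1b was at 6.68 ± 0.32 with FK506 6 mg/kg and 7.07 ± 0.19 with vehicle (n = 5 each), a change of -0.39 (adjusted p = 0.36). With Rapa 10 and 1 mg/kg the second probe set changed by -0.26 and -0.19 and the shared one by -0.23 and -0.04. The adjusted p ran from 0.646 to 0.963. With FK506 0.6 mg/kg, at -0.69 on the main probe set, the second changed by 0.34 (adjusted p = 0.694), with all 6 rats above the vehicle mean. The shared one changed by 0.07 (adjusted p = 0.94). The falls with FK506 6 mg/kg and Rapa were thus called on 1 of the 3 probe sets. The other probe sets were not always closer to vehicle. With Rapa 10 mg/kg at day 14 the second changed by 0.95 and the shared one by 0.79 (adjusted p = 0.0836 and 0.0532), against 0.28 on the main one. With CsA 25 mg/kg at day 14 both changed by 0.80 (adjusted p = 0.196 and 0.0628), against 0.19 on the main one.

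The difference between CsA 25 mg/kg and FK506 6 mg/kg at day 28 was called on all 3 probe sets. All were read on the same arrays, so they do not replicate each other. The second and shared probe sets were not fitted with the hybridization controls as a covariate or without the array with zeros. On the second Abcb1a probe set the CsA 25 mg/kg rats were at 6.89, 7.80, 6.95 and 6.61, all above the 5.89, 6.08, 6.04, 6.25 and 5.64 of the FK506 6 mg/kg rats, and the difference was 1.08 (SE 0.33, adjusted p = 0.0371). On the shared probe set it was 0.94 (SE 0.25, adjusted p = 0.0144), and 5.35% of all probe sets were called. The shared probe set was also higher with CsA 25 mg/kg than with Rapa 10 mg/kg, at 7.62 ± 0.44 (SD, n = 4) and 6.84 ± 0.40 (n = 6), a difference of 0.78 (SE 0.24, adjusted p = 0.0174) where 15.6% of probe sets were called. Over the 28 group means, which share arrays, the main probe set had a Pearson r of 0.44 with the second and 0.23 with the shared one, and the second and the shared one had 0.66 with each other.

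**Figure D3:**
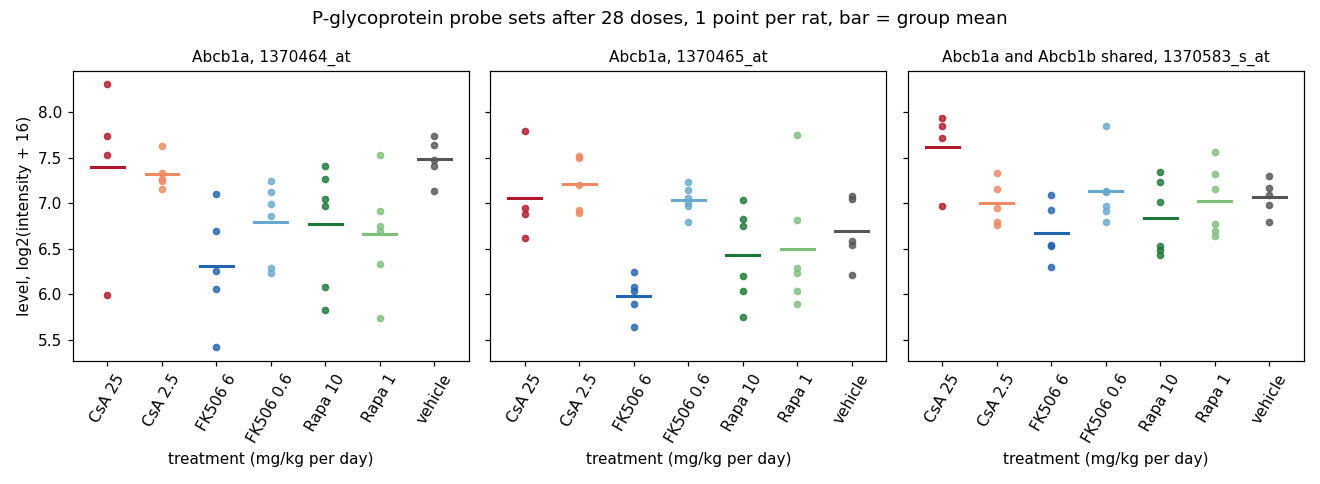
Level, log2(intensity + 16), of the 3 probe sets that detect P-glycoprotein transcripts in each rat after 28 doses (points) with group means (bars), by treatment. FK506 6 mg/kg lies below CsA 25 mg/kg on each probe set, while the lower position of Rapa against vehicle is plainest on the first.

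Abcc2, the apical exporter of conjugates, was 1.82 times its vehicle level at day 28 with both calcineurin inhibitors at the higher dose. The FK506 6 mg/kg rats had 7.82, 7.92, 8.74, 7.64 and 7.59, against 6.59, 7.48, 6.95, 7.45 and 6.91 in vehicle rats. These groups did not overlap, and the change was 0.87 (SE 0.23, 95% interval 0.41 to 1.33, adjusted p = 0.00474). The CsA 25 mg/kg rats had 7.56, 8.54, 8.46 and 7.21, so that 3 of 4 exceeded every vehicle rat, with a change of 0.87 (SE 0.25, 95% interval 0.38 to 1.35, adjusted p = 0.00597). Of all genes 21.1% were called with CsA 25 mg/kg, where 2 of 6 pumps were called. Without the array with zeros the CsA change was 0.69 (adjusted p = 0.0598), without replicate 2 it was 0.67 (adjusted p = 0.0631), and the FK506 change was 0.87 (adjusted p = 0.0408) with the hybridization controls as a covariate and 0.85 (adjusted p = 0.468) on the 1 array with controls of 10 or more.

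At the lower doses Abcc2 gave no call against vehicle. With FK506 0.6 mg/kg at day 28 it ranged from 7.30 to 8.30, with a mean of 7.74 ± 0.34 (SD, n = 6), and the change of 0.67 missed the threshold (SE 0.22, adjusted p = 0.0646). With CsA 2.5 mg/kg it was 6.98 ± 0.30 (n = 5), a change of -0.10 (95% interval -0.56 to 0.36). The CsA doses differed, with 25 above 2.5 mg/kg by 0.96 (SE 0.25, 95% interval 0.48 to 1.45, adjusted p = 0.00253), and this held in all 9 fits that each left out 1 rat (0.77 to 1.21). It was the only call among 72 pump tests of a higher against a lower dose, or 1.39%, where 2.42% of all gene tests and 18.4% of genes in this comparison were called, and 11 pump tests had an unadjusted p under 0.05. FK506 6 and 0.6 mg/kg differed by 0.20 (95% interval -0.24 to 0.64, adjusted p = 0.768). At day 28 Abcc2 was at 7.15 ± 0.37 with Rapa 10 mg/kg and 7.19 ± 0.31 with Rapa 1 mg/kg (n = 6 each). The changes were 0.08 (95% interval -0.37 to 0.52) and 0.12 (95% interval -0.32 to 0.56).

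Abcc2 gave no call with FK506 at days 1, 7 and 14. At day 14 the 3 FK506 6 mg/kg rats were at 8.16, 7.81 and 7.998, above the 6.96, 7.38, 7.55 and 7.35 of vehicle rats, with a change of 0.68 (SE 0.28, adjusted p = 0.182). At day 7 the FK506 6 mg/kg mean was 7.78 ± 0.12 and the vehicle mean 7.36 ± 0.13 (SD, n = 4 each), a change of 0.43. At day 1 the change was -0.01 with FK506 6 mg/kg and -0.37 with FK506 0.6 mg/kg.

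A day 1 value of Abcc2 went with liver transcripts. The 4 CsA 25 mg/kg rats were at 7.13, 6.83, 8.55 and 8.55, against 6.98, 7.24, 7.39 and 6.74 in vehicle rats, a change of 0.68 that was not called (SE 0.26, adjusted p = 0.41). Replicates 3 and 4, the high ones, had Alb levels of 14.49 and 14.38, and the low ones had 5.67 and 5.73. The mean of 14 liver markers ran from 6.23 to 12.29 in CsA 25 mg/kg rats and from 6.16 to 6.39 in vehicle rats at day 1, with 7 of the 9 tested markers called higher. Liver cells express Abcc2 strongly, and the part of these transcripts in the value was not tested. At day 28 Alb did not rise above 6.26 with CsA 25 mg/kg or 9.09 with FK506 6 mg/kg, against a highest value of 10.69 with vehicle.

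In direct comparisons of the higher doses, Abcc2 was higher with both calcineurin inhibitors than with Rapa. Of 72 pump tests between higher doses, 6 were called (8.33%, against 7.36% of all gene tests, with 23 at an unadjusted p under 0.05), and 5 of the 6 were Abcc2. The doses in mg/kg differ between drugs, so these are differences between dose groups. FK506 and Rapa are both macrolides that bind the same intracellular protein, while CsA is a cyclic peptide. Of the 12 comparisons, the 4 between CsA 25 mg/kg and FK506 6 mg/kg gave no Abcc2 call, and at day 28 their 95% interval ran from -0.49 to 0.49.

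FK506 6 mg/kg was above Rapa 10 mg/kg in Abcc2 from day 7 on. At day 7 the FK506 rats were at 7.85, 7.60, 7.80 and 7.87 and the Rapa rats at 6.83, 6.10, 7.39 and 7.32, with no overlap and a difference of 0.88 (SE 0.26, adjusted p = 0.0243) where 6.44% of genes were called. At day 14 the FK506 rats were at 8.16, 7.81 and 7.998 and the Rapa rats at 7.20, 7.15, 6.54 and 7.34, again apart, with a difference of 0.93 (SE 0.28, adjusted p = 0.0207) where 9.41% were called. At day 28 the means were 7.94 ± 0.46 with FK506 (SD, n = 5) and 7.15 ± 0.37 with Rapa (n = 6), a difference of 0.79 (SE 0.22, adjusted p = 0.00967) where 11% were called. In each of these comparisons Abcc2 was the only pump called. Against vehicle, Rapa 10 mg/kg changed Abcc2 by -0.45 at day 7 and -0.25 at day 14. The FK506 6 mg/kg changes were 0.43 and 0.68, and none of these was called. Single rats mattered: without Rapa 10 mg/kg replicate 2 the day 7 difference was 0.61 (adjusted p = 0.222) and 4 other omissions (FK506 replicates 1, 3 and 4, Rapa replicate 1) gave 0.84 to 0.87 (adjusted p up to 0.0631). The day 14 difference was 0.76 (adjusted p = 0.111) without Rapa replicate 3, 0.85 (0.117) without FK506 replicate 1 and 0.93 (0.0555) without FK506 replicate 3, and the day 28 difference was 0.59 (0.0889) without FK506 replicate 3, 0.79 (0.088) with the control level as a covariate and 0.77 (0.561) without the low-control arrays, where 1 FK506 rat remained and was taken to vary like the other groups.

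CsA 25 mg/kg was above Rapa 10 mg/kg in Abcc2 at days 14 and 28. The CsA rats at day 14 were at 7.49, 7.82, 8.06 and 7.69, above the 7.20, 7.15, 6.54 and 7.34 of Rapa rats, with a difference of 0.71 (SE 0.26, adjusted p = 0.0489) where 14.7% of genes were called. At day 28 the means were 7.94 ± 0.66 with CsA (SD, n = 4) and 7.15 ± 0.37 with Rapa (n = 6), a difference of 0.79 (SE 0.24, adjusted p = 0.0101) where 19.9% of genes were called. The groups overlapped at day 28, and Abcc2 was again the only pump called at either day. Omitting CsA 25 mg/kg replicate 2, 3 or 4 or Rapa 10 mg/kg replicate 1, 2 or 3 at day 14 gave 0.54 to 0.76 (adjusted p from 0.0606 to 0.219), and 5 of 11 other settings gave 0.65 to 0.79 (adjusted p from 0.052 to 0.0814), namely probe sets kept apart, dim genes kept in, 1 as the offset and either array quality covariate. At day 28 omitting CsA replicate 2 gave 0.59 (0.1) and the array with zeros 0.62 (0.0997). At day 1 the CsA difference from Rapa was 0.66 (adjusted p = 0.113) and at day 7 it was 0.51 (adjusted p = 0.225).

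**Figure D4:**
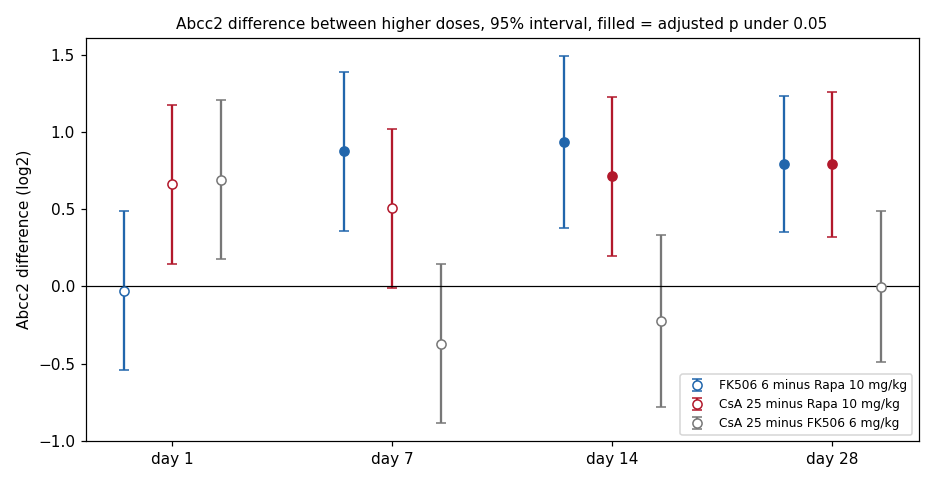
Difference in Abcc2 level (log2) between the higher doses of each pair of drugs at each day, with 95% intervals and filled points at adjusted p under 0.05. FK506 6 minus Rapa 10 mg/kg lies near 0 at day 1 and between 0.79 and 0.93 later, and CsA 25 minus FK506 6 mg/kg has no filled point.

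Abcc4, the apical exporter of cyclic nucleotides and urate, was higher at day 28 with FK506 0.6 mg/kg and CsA 25 mg/kg. The FK506 0.6 mg/kg rats ranged from 9.40 to 9.83 with a mean of 9.58 ± 0.18 (SD, n = 6), against 9.04, 9.05, 9.48, 9.17 and 8.89 and a mean of 9.12 ± 0.22 in vehicle rats (n = 5). Only 1 vehicle rat reached the treated range, and the change was 0.45 (SE 0.12, 95% interval 0.21 to 0.69, adjusted p = 0.0156), the only pump call where 4.33% of genes were called. The CsA 25 mg/kg rats were at 9.50, 9.50, 9.74 and 9.19, a change of 0.36 (SE 0.13, adjusted p = 0.0441). FK506 6 mg/kg gave 9.40 ± 0.23 (n = 5) and a change of 0.28 that was not called (adjusted p = 0.128), and its difference from FK506 0.6 mg/kg was -0.18 (95% interval -0.42 to 0.07, adjusted p = 0.554).

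Both Abcc4 calls were lost in some other fits. The FK506 0.6 mg/kg change was 0.39 (adjusted p = 0.062) without vehicle replicate 5. The CsA 25 mg/kg call was lost in 7 of 9 fits that left out 1 rat (vehicle replicate 1, 2, 4 or 5, CsA replicate 1, 2 or 3), with changes from 0.27 without the array with zeros (adjusted p = 0.208) to 0.37. At day 14 the 3 FK506 6 mg/kg rats, at 9.59, 9.43 and 9.49, all lay above the vehicle rats at 9.02, 9.03, 9.36 and 8.97, a change of 0.41 (SE 0.15, adjusted p = 0.13). Over all 24 comparisons with vehicle, Abcc4 was above 0 in 19.

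Abcg2, the apical urate exporter, was higher after 14 doses of Rapa. The Rapa 10 mg/kg rats were at 11.44, 11.29, 11.26 and 11.15 and the Rapa 1 mg/kg rats at 11.47, 11.07, 11.15 and 11.17, against 10.87, 10.92, 10.84 and 10.62 in vehicle rats. Every Rapa rat was above every vehicle rat. The changes were 0.47 (SE 0.14, 95% interval 0.20 to 0.74, adjusted p = 0.0145) for 10 mg/kg and 0.40 (SE 0.14, adjusted p = 0.0471) for 1 mg/kg, where 10.5% and 9.05% of genes were called and Abcg2 was the only pump. The doses differed by 0.07 (95% interval -0.20 to 0.34).

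Neither Abcg2 call survived the omission of every rat. The Rapa 10 mg/kg change was 0.41 (adjusted p = 0.0625) without vehicle replicate 4 and 0.42 (adjusted p = 0.0603) without Rapa replicate 1. That of Rapa 1 mg/kg was lost in 7 of 8 such fits (any vehicle replicate, Rapa replicate 1, 3 or 4), with changes from 0.32 to 0.44 and adjusted p up to 0.168. At days 7 and 28 the Rapa 10 mg/kg changes were 0.17 and 0.19, with no call. The FK506 6 mg/kg rats at day 14 were also above all vehicle rats, at 11.24, 11.08 and 11.13, with a change of 0.34 (SE 0.15, adjusted p = 0.213), and CsA 25 mg/kg was at 10.94 ± 0.09 (SD, n = 4), 0.35 below Rapa 10 mg/kg without overlap but not called (adjusted p = 0.0715). Macrophage and leukocyte markers moved with the Rapa day 14 groups, as 7 of 14 tested fell with 10 mg/kg and their 20-gene mean was 6.80 to 7.22 with 10 mg/kg, 6.83 to 7.14 with 1 mg/kg and 7.30 to 7.72 with vehicle. Proximal tubule markers did as well, with 4 of 19 lower at each dose and a mean of 12.16 to 12.25 with 10 mg/kg, 11.86 to 12.30 with 1 mg/kg and 12.33 to 12.52 with vehicle, and the part of either in the Abcg2 values was not tested.

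The basolateral pumps gave no call in any of the 51 comparisons. Of all gene tests 5.22% were called against vehicle, 7.36% between higher doses, 2.42% between doses of a drug and 2.11% between vehicle days. At these shares few calls are due for any pair of genes, so their absence cannot be read as a trait of basolateral pumps. Abcc1 stayed between -0.23 and 0.22 against vehicle, with no unadjusted p under 0.05 in 24 comparisons. At day 28 its 95% intervals were -0.23 to 0.22 for CsA 25 mg/kg, -0.22 to 0.20 for FK506 6 mg/kg and -0.09 to 0.31 for Rapa 10 mg/kg. Abcc3, an exporter of glucuronides, was 0.43 above vehicle with CsA 25 mg/kg (adjusted p = 0.108), 0.37 with FK506 6 mg/kg (0.174) and 0.42 with FK506 0.6 mg/kg (0.168) at day 28. Its 4 CsA 25 mg/kg rats were at 6.98, 7.41, 7.52 and 7.23 and its FK506 6 mg/kg rats at 7.05, 7.10, 7.24, 7.13 and 7.59, all above the Rapa 10 mg/kg rats at 6.49 to 6.97. Those differences from Rapa were 0.47 (adjusted p = 0.0638) and 0.41 (adjusted p = 0.125) and missed the threshold. At day 7 Abcc3 lay the other way, at 6.69 with CsA 25 mg/kg and 7.07 with FK506 6 mg/kg, against 7.23 with Rapa 10 mg/kg, and at day 14 it was at 6.92 with CsA 25 mg/kg and 6.86 with FK506 6 mg/kg, against 7.08 with Rapa 10 mg/kg, with no call.

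Injury and cell type markers changed in the day 28 groups where Abcb1a, Abcc2 and Abcc4 were called. Shares of all genes called in these comparisons were 21.1% with CsA 25 mg/kg, 16% with FK506 6 mg/kg, 4.33% with FK506 0.6 mg/kg, 15.7% with Rapa 10 mg/kg and 9.85% with Rapa 1 mg/kg. Of 15 tested tubular injury markers 12 rose with CsA 25 mg/kg, 12 with FK506 6 mg/kg, 8 with FK506 0.6 mg/kg, 2 with Rapa 10 mg/kg and 6 with Rapa 1 mg/kg, where 1 fell. The median changes with CsA 25 and FK506 6 mg/kg were 1.197 and 0.75 (all genes 0.01 in both), led in both by Havcr1 (kidney injury molecule 1) at 4.42 (SE 0.52, adjusted p = 2.39e-10) and 3.65 (SE 0.49, adjusted p = 3.33e-08). Their mean level was 9.67 to 10.28 with CsA 25 mg/kg, 9.24 to 10.41 with FK506 6 mg/kg, 8.99 to 9.55 with FK506 0.6 mg/kg, 8.60 to 9.11 with Rapa 10 mg/kg, 8.63 to 9.96 with Rapa 1 mg/kg and 8.30 to 8.59 with vehicle. Distal tubule markers fell for 6 of 10 with CsA 25 mg/kg, 5 with FK506 6 mg/kg and 5 with FK506 0.6 mg/kg, and for none with either Rapa dose. Their mean level was 8.36 to 8.79 with CsA 25 mg/kg, 8.64 to 8.82 with FK506 6 mg/kg, 8.60 to 8.82 with FK506 0.6 mg/kg, 9.31 to 9.65 with Rapa 10 mg/kg and 9.35 to 9.61 with Rapa 1 mg/kg, against 9.22 to 9.66 with vehicle. Endothelial markers were lower for 3 of 12 with CsA 25 mg/kg, at a mean of 8.32 to 8.68, against 8.75 to 9.05 with vehicle. Proximal tubule markers, which mark the cells that carry most of these pumps, fell for 8 of 19 with CsA 25 mg/kg, 4 with FK506 6 mg/kg, 2 with FK506 0.6 mg/kg, 6 with Rapa 10 mg/kg and 3 with Rapa 1 mg/kg, and none rose in these groups. Their mean level was 11.89 to 12.30 with CsA 25 mg/kg, 12.22 to 12.39 with FK506 6 mg/kg and 12.30 to 12.46 with FK506 0.6 mg/kg. It was 12.08 to 12.30 with Rapa 10 mg/kg and 12.21 to 12.35 with Rapa 1 mg/kg, against 12.39 to 12.53 with vehicle. Macrophage and leukocyte markers were higher for 11 of 14 with CsA 25 mg/kg and 6 with FK506 6 mg/kg, and lower for 2 with Rapa 10 mg/kg. The part of these shifts in the Abcb1a, Abcc2 and Abcc4 values was not tested.

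**Figure D5:**
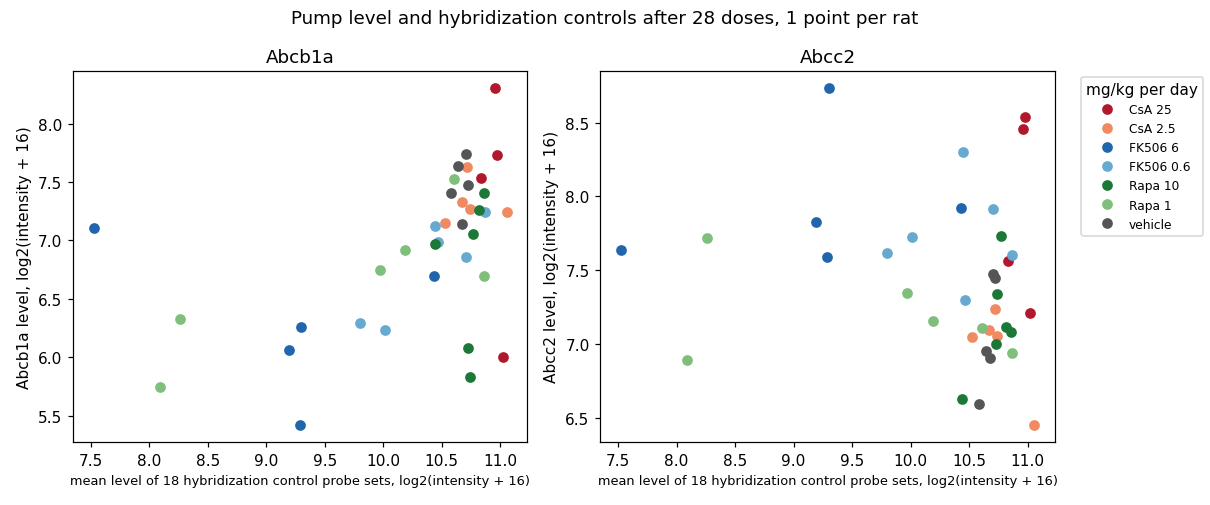
Level of Abcb1a (left) and Abcc2 (right), log2(intensity + 16), in each rat after 28 doses against the mean level of the 18 hybridization control probe sets on the same array. The FK506 6 mg/kg and Rapa 1 mg/kg arrays reach down to 7.52 and 8.09 on the x axis, vehicle arrays stand at 10.58 to 10.72, and 2 Rapa 10 mg/kg rats are low in Abcb1a at ordinary control levels.

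Among the transporters that bring drugs and anions into tubule cells, the calls of CsA 25 mg/kg, of both FK506 doses and of both Rapa doses at day 28 were falls. Of 14 tested uptake partners, 5 were lower with CsA 25 mg/kg (median of the list -0.35, of all genes 0.01), 5 with FK506 6 mg/kg (-0.21), 2 with FK506 0.6 mg/kg (-0.07), 4 with Rapa 10 mg/kg (-0.32) and 4 with Rapa 1 mg/kg (-0.09). The list is read beside the 21.1%, 16%, 4.33%, 15.7% and 9.85% of all genes called in these comparisons. The largest were Slc22a12, the urate exchanger of the brush border, at -2.65 with CsA 25 mg/kg (SE 0.44, adjusted p = 2.15e-06), and Slc22a5, the carnitine transporter, at -0.90 with FK506 6 mg/kg (SE 0.12, adjusted p = 3.33e-08) and -0.84 with Rapa 10 mg/kg (SE 0.12, adjusted p = 4.02e-08). Slc22a2, the basolateral organic cation transporter, changed by -0.81 with CsA 25 mg/kg and -0.55 with FK506 6 mg/kg. Of 26 other ABC transporters, 3 rose and 6 fell with CsA 25 mg/kg, 3 and 3 with FK506 6 mg/kg, and 1 and 5 with Rapa 10 mg/kg, beside 21.1%, 16% and 15.7% of all genes called. Abcc8, the sulfonylurea receptor, fell with each of these (-0.97, -0.81 and -1.002), and Abca8a rose with each (0.64, 0.83 and 0.96).

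Genes that act on pump transcription, on pump position in the membrane or on the supply of conjugates are read beside the same shares of all genes. Of 17 transcriptional regulators 1 rose and 2 fell with CsA 25 mg/kg at day 28, 1 and 2 with FK506 6 mg/kg, and 2 and 1 with Rapa 10 mg/kg. The falls with CsA were Hnf4a, a proximal tubule and liver transcription factor, at -2.31 (SE 0.49, adjusted p = 0.000215), and Nr1h4, the bile acid receptor that induces Abcc2 in liver, at -0.77 (SE 0.13, adjusted p = 2.16e-06). With FK506 6 mg/kg Nr1h4 was at -0.34 (adjusted p = 0.0402). Of 9 anchoring and trafficking proteins, 1 rose and 1 fell with CsA 25 mg/kg, 1 and 2 with FK506 6 mg/kg and 1 and 3 with Rapa 10 mg/kg. Among them Pdzk1, a brush border scaffold, fell by 0.27 on the log2 scale with CsA 25 mg/kg and by 0.38 with Rapa 10 mg/kg, and Ezr (ezrin) rose with CsA 25 mg/kg (0.24) and FK506 6 mg/kg (0.37). Of 27 conjugating and glutathione enzymes 4 fell and none rose with CsA 25 mg/kg, 4 and 1 with FK506 6 mg/kg, and 7 and 1 with Rapa 10 mg/kg. Those of CsA include Gclc and Gclm, the subunits of the enzyme that limits glutathione synthesis (-0.40 and -0.30). Of 15 targets of the transcription factor NRF2, which can also induce Abcc2, 1 rose and 3 fell with both CsA 25 mg/kg and FK506 6 mg/kg and 1 and 4 with Rapa 10 mg/kg, with list medians of -0.03, -0.12 and -0.13. Of 8 tested Cyp and xenobiotic receptor targets none was called with CsA 25 mg/kg, 1 rose and 1 fell with FK506 6 mg/kg, and 2 fell with Rapa 10 mg/kg. Of those, Cyp4a1, a fatty acid hydroxylase, fell with Rapa 10 mg/kg (-0.76, adjusted p = 0.000241).

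Across the 28 group means, which share arrays and vehicle rats, correlations between pumps were of both signs. The highest Pearson r between pumps was 0.68, for Abcc2 with Abcc4, and the lowest was -0.62, for Abcc1 with Abcc2. Abcb1a had r between -0.23 and 0.22 with every other pump. Among all tested genes the closest to Abcc2 were St3gal6 (r = 0.87), a sialyltransferase, Wdr77 (0.83) and Pm20d2 (0.82), and the closest to Abcc4 were Faap20 (0.86), Lrp11 (0.83) and Hmox1 (0.82), the heme oxygenase. The closest to Abcg2 were Papss2 (0.84), an enzyme that makes the sulfate donor, Omd (0.71) and Trip12 (0.70). The closest to Abcb1a were Pcyox1 (0.75), Bloc1s4 (0.72) and Snrpd1 (0.72), but without the array with zeros Pcyox1 had 0.68, below Bloc1s4 (0.77) and Snrpd1 (0.72). The closest to Abcc1 were Lmo4 (0.76), Aktip (0.74) and Gnb1 (0.71), and for Abcc3 the nearest 3 genes, Pogz, Banf1 and Sf3b4, reached no more than 0.65.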

How the data were processed

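Kidney RNA of 120 rats was hybridized to Affymetrix rat arrays, 1 array per rat. The deposited values are linear intensities per probe set, obtained with GeneChip Operating Software per the labels; the scaling and summary method is not given in the sources used here. The table held 31099 probe sets, of which 20826 had 1 gene symbol, 436 several and 9780 none, and 57 were controls. Intensities were offset by 16, taken to log2 and quantile normalized. The brightest probe set stood for each gene, and the 25% of genes with the lowest mean were left out. Changes were tested two-sided with limma 3.58.1 in R 4.3.3, with 1 mean for each of 28 groups, 92 residual degrees of freedom and Benjamini-Hochberg adjustment over all genes of a comparison, called at 0.05. The number of arrays limits the precision, and replicates were separate rats. Tests were checked on simulated data for FK506 6 mg/kg against vehicle at day 28, with 200 changed genes. Of changes of 0.4 and 0.9 on the log2 scale, 54% and 90% were recovered, and 7.69% of calls were false. The simulation gave each gene 1 spread in all groups, so it cannot show the effect of a spread that differs between groups.

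The pumps and gene lists were chosen with earlier results of these data known. All members are named, along with up to 4 called genes of each described list with the largest change per comparison and, for each member, the 3 genes with the highest correlation over group means. Alternatives covered normalization, offset, filter, probe sets, intensity trend, array quality covariates, and omission of arrays.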

Additional observations from a re-analysis of the deposited data

Results flagged for a closer look

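A rat stood far from the others of its group in 8 of 162 combinations of a pump and a group. This is near the 1 in 20 or so that chance gives, and the pumps of a group share its rats. Abcb1a was 6.43 in replicate 3 of FK506 0.6 mg/kg at day 7, with the others at 7.23 to 7.32. Abcc2 was 5.99 in replicate 1 of FK506 0.6 mg/kg at day 1 (others 6.92 to 7.02), 6.45 in replicate 5 of CsA 2.5 mg/kg at day 28 (others 7.05 to 7.24) and 8.74 in replicate 3 of FK506 6 mg/kg at day 28 (others 7.59 to 7.92). Abcc3 was 6.17 in replicate 3 of CsA 25 mg/kg at day 7 (others 6.82 to 6.91) and 6.78 in replicate 2 of FK506 0.6 mg/kg at day 28 (others 7.27 to 7.54). Abcc4 was 9.36 in replicate 3 of vehicle at day 14 (others 8.97 to 9.03), and Abcg2 was 10.45 in replicate 3 of Rapa 1 mg/kg at day 1 (others 10.81 to 10.84).

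The change of Abcb1a with Rapa 10 mg/kg differed between day 28 and day 1 by -1.24 in the interaction test, the only 1 of 36 that was called. Over the same 6 treatments 2.86% of all gene tests were called, a share near that of the pumps. The interaction test was not run in other settings or without single rats.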

How the results depend on the processing

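Over 11 other settings the 9 pump calls against vehicle numbered 6 to 10, the 6 between higher doses 4 to 11, the 1 between doses 1 to 2 and the vehicle days 0. The count between higher doses was 11 with arrays of the compared days alone, and the count between doses was 2 without quantile normalization, with the Gapdh ratio as a covariate and with the compared days alone. Shares of all genes called in these settings are not set beside the counts. A shift of the pumps is thus not told apart from a shift of all genes. Leaving out 1 rat gave 1 to 3 calls between doses, with 3 without replicate 4 of CsA 25 mg/kg at day 28. The 2 added there were Abcc4 at day 28 and Abcc2 at day 14, both for CsA 25 against 2.5 mg/kg, although the day 14 comparison does not hold that rat. No called change reversed its direction, but uncalled ones could, as Abcb1a with CsA 25 mg/kg at day 28 did without replicate 4 (0.38, against -0.09 with all rats). The Abcc2 difference between CsA doses at day 28 held in all 11 settings (0.79 to 1.05). Without CsA 25 mg/kg replicate 2 at day 1, Abcc2 was newly called against vehicle, FK506 6 mg/kg and Rapa 10 mg/kg at day 1. The rats left in that group include replicates 3 and 4, with Alb levels of 14.49 and 14.38. The part of liver transcripts in these calls was not tested. With the compared days alone, the Abcb1a calls at day 28 were lost for Rapa 10 mg/kg (-0.72, adjusted p = 0.164), Rapa 1 mg/kg (-0.83, 0.136) and CsA 25 against FK506 6 mg/kg (1.09, 0.183), and so were Abcc4 with FK506 0.6 mg/kg (0.45, 0.0979) and with CsA 25 mg/kg (0.36, 0.131). Without the filter on dim genes and with probe sets kept apart, Abcc4 with CsA 25 mg/kg (0.36, adjusted p = 0.057 and 0.0554) and Abcg2 with Rapa 1 mg/kg at day 14 (0.40, 0.0613 and 0.0674) were also lost. More features are tested in these fits and fewer arrays enter those of the compared days. The fit to all arrays takes 1 spread per gene from all 28 groups. Abcb1a SDs at day 28 were 0.64 with FK506 6 mg/kg, 0.65 and 0.59 with Rapa 10 and 1 mg/kg and 0.99 with CsA 25 mg/kg. The median SD over all groups was 0.31, so the main SEs and p-values of Abcb1a do not allow for a wider spread at day 28. The part of each of these in the lost calls was not tested. The other Abcb1 probe sets and the omission of arrays with low hybridization controls were chosen after seeing the data. Leaving out rats was not run for lower doses at day 1 or for groups of 6. No paired analysis was possible because the replicate numbers are names given within groups and each rat is in 1 group. Weak signal limits Abcb1a, whose median deposited intensity was 119.7 and whose lowest was 26.97.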
